A study of Mus musculus with 15 samples.

Results

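The glucocorticoid receptor and 7 genes tied to its action in early red cell progenitors were followed through 15 RNA sequencing libraries: the receptor itself (Nr3c1), the mRNA-binding proteins Zfp36l2 and Zfp36l1, the receptor-induced genes Tsc22d3, Fkbp5, Per1 and Dusp1, and the nuclear receptor Ppara. The rule that picks the 8 members uses gene names, which were chosen with earlier results of these data known. Each name matched 1 row among the 55487 mouse genes of the deposited tables. The libraries were made from erythroid progenitors of the fetal liver of 129S6/SvEvTac embryos at E12.5, in groups of 3. Group 1 of mice held wildtype and Rpl5 mutant libraries, labelled as polyA RNA; group 2 held wildtype, mutant and low-yield mutant libraries, labelled as total RNA. In the authors' sample sheet for group 2 the mutant and low-yield mutant libraries carry the genotype Rpl5plusSkax23Jus, that is, 1 Skax23-Jus allele of Rpl5, a ribosomal protein gene, beside 1 wildtype allele; the sheet for group 1 gives only wildtype or mutant. The labels do not define "low-yield". They also do not say whether libraries of a group came from separate embryos or litters, so p-values measure the spread between these libraries.

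Glucocorticoids act through Nr3c1, a steroid receptor that waits in the cytoplasm with chaperones and moves to the nucleus when bound by hormone. In erythroid progenitors the activated receptor is known for favouring renewal of the earliest committed cells (burst-forming units) over maturation, which is the usual account of why glucocorticoids help patients with Diamond Blackfan anemia, the syndrome of red cell failure named in the title of the series. Zfp36l2 is known as a glucocorticoid-induced gene of these progenitors; its product binds AU-rich elements and promotes decay of mRNAs needed for maturation. Agonists of Ppara are known to work together with glucocorticoids in expanding the same progenitors.

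Total counts ranged from 48510828 to 58513669 per library in group 1 and from 24954324 to 44827821 in group 2, and Rpl5 was lower in every mutant library than in any wildtype library of its group of mice, with log2 fold changes of -0.32 in group 1, -0.46 in the mutants of group 2 and -0.44 in the low-yield mutants. Levels are in CPM, that is, counts divided by the scaled size of their library, and levels of group 1 were not set against those of group 2, since the labelled kind of RNA differs. The labelled cell type was checked against 8 erythroid markers, none of which was at 0 in any library: their summed level was 2324 to 3598 CPM in wildtype and 1941 to 2055 CPM in mutant libraries of group 1, and 2768 to 3168, 2317 to 2552 and 2175 to 2720 CPM in wildtype, mutant and low-yield mutant libraries of group 2. In these bulk libraries, fewer cells of a type and less RNA per cell cannot be told apart. Genes were tested with edgeR's quasi-likelihood F test and called at a Benjamini-Hochberg adjusted p under 0.05 over all genes tested.

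The receptor and both of its mRNA-binding partners were expressed in every library and passed the edgeR test in no comparison; with the replicate number as a block, Zfp36l1 was called lower in group 1, a call that depended on single pairs of libraries. Among the receptor-induced genes, Dusp1 was lower in the mutants of group 1, in the mutants of group 2 and in the low-yield mutants, with changes of -36.3%, -38.1% and -45.0%. Fkbp5 was lower by a smaller margin, which passed the test when both groups of mice were fitted together. Tsc22d3 and Per1 were called nowhere, and Ppara was barely detected.

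**Figure D1:**
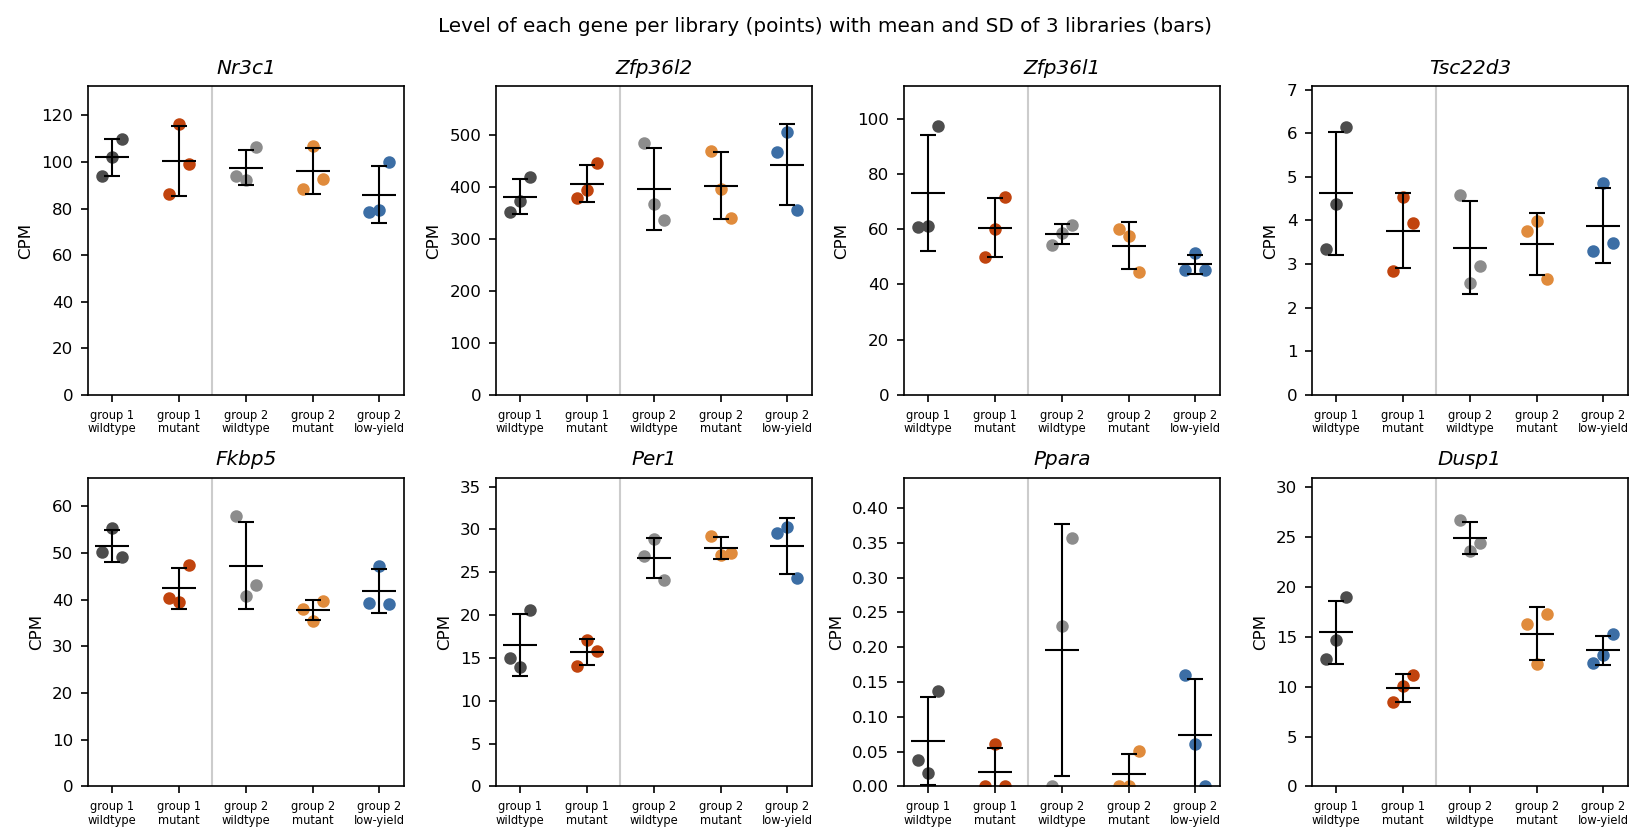
Level of each member in every library, in CPM, 1 panel per gene with its own axis. Points are libraries, bars are the mean ± SD of 3 libraries, and the vertical line separates the groups of mice, between which levels are not compared. Dusp1 is the gene whose mutant libraries all sit below the wildtype libraries of their group of mice, in both groups of mice and in the low-yield mutants.

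Compared per length of merged exons, the members spanned a wide range of levels. In wildtype libraries of group 2, Zfp36l2 stood at 112 ± 22.3 CPM per kb (mean ± SD, n = 3), above 97.2% of the 15005 genes ranked there. Zfp36l1 followed at 19.4 ± 1.20 and Nr3c1 at 12.7 ± 0.994 CPM per kb. Dusp1 was at 7.52 ± 0.488, Fkbp5 at 4.99 ± 0.985, Per1 at 4.73 ± 0.421 and Tsc22d3 at 0.777 ± 0.246 CPM per kb. Fkbp5 and Per1 overlapped within their SD and could not be placed in order, whereas the other neighbours were further apart than their SDs. In wildtype libraries of group 1 the first 3 were in the same order, at 108 ± 9.65, 24.4 ± 7.0 and 13.3 ± 1.04 CPM per kb; Fkbp5 at 5.44 ± 0.359 and Dusp1 at 4.67 ± 0.956 overlapped there, and Per1 was below them at 2.93 ± 0.635 CPM per kb. In the mutants of group 2, Per1 was at 4.94 ± 0.220, Dusp1 at 4.62 ± 0.801 and Fkbp5 at 3.98 ± 0.226 CPM per kb, so that Dusp1 no longer stood apart from its neighbours as it did in the wildtype libraries of that group. In the low-yield mutants the same 3 genes were at 4.98 ± 0.575, 4.11 ± 0.450 and 4.42 ± 0.492 CPM per kb.

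**Figure D2:**
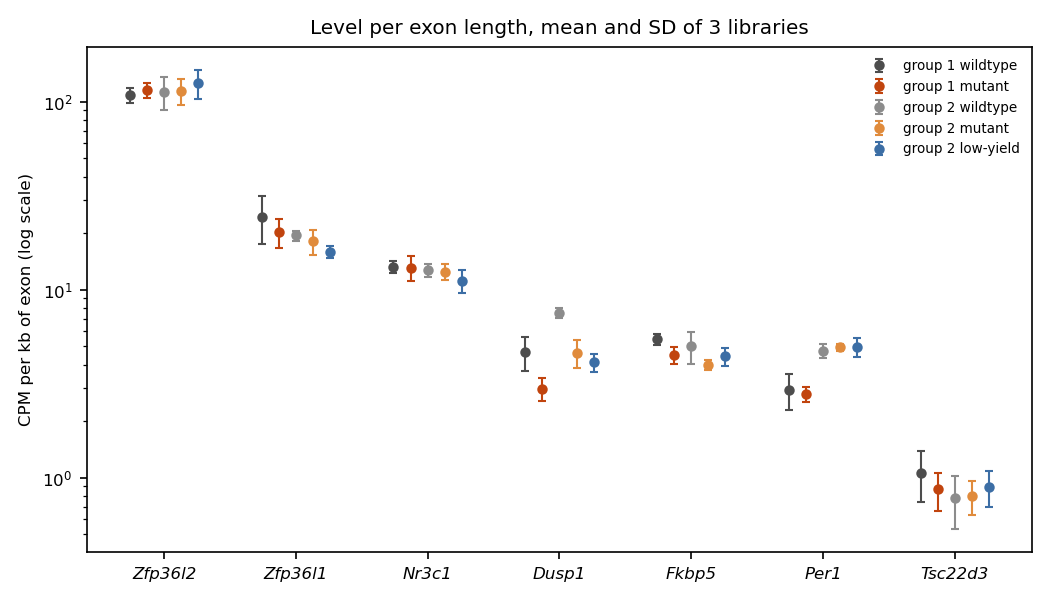
Level per length of 7 members in each of the 5 groups of libraries, in CPM per kb of merged exon on a log axis; points are means and bars are SDs of 3 libraries. Ppara is left out because several of its libraries had no count. Zfp36l2 lies above all other members in each group and Tsc22d3 lies below them, while Dusp1, Fkbp5 and Per1 lie between Nr3c1 and Tsc22d3 in an order that changes between groups.

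The receptor gene Nr3c1 (ENSMUSG00000024431) stood at 94.0, 102 and 110 CPM in the wildtype libraries of group 1 and at 86.3, 116 and 99.0 CPM in the mutants. In group 2 it stood at 94.1, 92.3 and 106 CPM in wildtype, 88.3, 107 and 92.9 CPM in mutant and 78.5, 79.6 and 99.99 CPM in low-yield mutant libraries. The ranges of wildtype and mutant libraries overlapped in each case. Against wildtype, its log2 fold change came to -0.02 in group 1 (SE 0.11, edgeR adjusted p = 0.927), -0.02 in the mutants of group 2 (SE 0.11, adjusted p = 0.930) and -0.18 in the low-yield mutants (SE 0.11, adjusted p = 0.309). The low-yield value was -0.30 without low-yield replicate 3 (adjusted p = 0.0718) and lay between -0.22 and -0.11 without any other 1 library. Over both groups of mice it was -0.02, with an approximate 95% interval from -0.16 to 0.11.

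Zfp36l2 (ENSMUSG00000045817, chr17:84183931-84187947 on the minus strand of GRCm38), the most abundant member, was at 352, 373 and 419 CPM in wildtype and 379, 393 and 447 CPM in mutant libraries of group 1. In group 2 the 3 wildtype libraries were at 485, 367 and 336 CPM, the mutants at 469, 397 and 341 CPM and the low-yield mutants at 467, 506 and 356 CPM. Libraries of 1 group differed by more than the group means did, and all ranges overlapped. Over both groups of mice the log2 fold change was 0.06 (SE 0.09, edgeR adjusted p = 0.706), with an approximate 95% interval from -0.12 to 0.23. An antisense gene that shares 105 bp of exon with Zfp36l2 reached at most 0.101 CPM.

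Zfp36l1 (ENSMUSG00000021127, chr12:80107754-80113013, minus strand), a paralog with the same kind of RNA-binding zinc fingers, was at 60.7, 61.1 and 97.2 CPM in wildtype and 50.1, 60.0 and 71.7 CPM in mutant libraries of group 1. In group 2 it was at 54.3, 58.6 and 61.5 CPM in wildtype, 60.2, 57.4 and 44.4 CPM in mutant and 45.4, 51.3 and 45.2 CPM in low-yield mutant libraries. The low-yield mutants lay below all wildtype libraries of their group, while wildtype and mutant ranges overlapped in both groups of mice. Zfp36l1 had a log2 fold change of -0.27 in group 1 (SE 0.25, edgeR adjusted p = 0.555), -0.11 in the mutants of group 2 (SE 0.11, adjusted p = 0.649) and -0.30 in the low-yield mutants (SE 0.11, adjusted p = 0.0982). With the replicate number as a block, an alternative fit, the value in group 1 was -0.25 with an edgeR adjusted p of 0.0324. That call held without the libraries numbered 2 (-0.37, edgeR adjusted p = 0.0134) and was lost without those numbered 1 (-0.24, adjusted p = 0.116) or 3 (-0.15, adjusted p = 0.342), in fits chosen after seeing the data. Without the block and without wildtype replicate 3, the highest library, the value was -0.01 (adjusted p = 0.974), and between -0.40 and -0.15 without any other 1 library. In the mutants of group 2 it was 0.02 without mutant replicate 3 (adjusted p = 0.967). A lincRNA on the other strand, Gm26669, shares 1672 bp of exon with Zfp36l1, and the use of strand in counting is not given in the sources used here, so its reads cannot be told apart from those of Zfp36l1.

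Dusp1 (ENSMUSG00000024190, chr17:26505590-26562128, minus strand) encodes a phosphatase that switches off p38 and JNK MAP kinases and is induced by glucocorticoids and by stress. It was at 12.8, 14.6 and 19.0 CPM in the wildtype libraries of group 1 and at 8.44, 10.0 and 11.1 CPM in the mutants. In group 2 it was at 26.7, 23.6 and 24.4 CPM in wildtype, 16.3, 12.3 and 17.3 CPM in mutant and 12.4, 13.2 and 15.3 CPM in low-yield mutant libraries. No mutant or low-yield library reached the lowest wildtype library of its group. For Dusp1 the fold change on the log2 scale was -0.65 in group 1 (SE 0.16, edgeR adjusted p = 0.0244), -0.69 in the mutants of group 2 (SE 0.14, adjusted p = 0.00886) and -0.86 in the low-yield mutants (SE 0.14, adjusted p = 0.00107). The last pair of comparisons shares its wildtype libraries. Over both groups of mice the value was -0.67 (SE 0.11, adjusted p = 0.000138), a level 0.629 times that of wildtype, with an approximate 95% interval from -0.88 to -0.46. The mutant effect did not differ detectably between the groups of mice (difference in log2 fold change -0.02, SE 0.22, adjusted p = 1), and the difference between low-yield and ordinary mutants was not called (log2 fold change -0.17, approximate 95% interval from -0.46 to 0.11).

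In group 1, the call of Dusp1 depended on single libraries. It was called without wildtype replicate 1 (adjusted p = 0.0222) and missed the threshold without wildtype replicate 2 (-0.69, adjusted p = 0.0656), wildtype replicate 3 (-0.48, 0.0895), mutant replicate 1 (-0.55, 0.0649), mutant replicate 2 (-0.66, 0.0518) or mutant replicate 3 (-0.74, 0.0518), each by edgeR. With the replicate block it was called in group 1 without any 1 pair of libraries, with adjusted p between 0.00197 and 0.0281. In group 2 and over both groups of mice Dusp1 stayed called without any single library, with adjusted p between 0.00773 and 0.0297 for the mutants of group 2, between 0.000636 and 0.0109 for the low-yield mutants and between 0.000117 and 0.000589 over both groups of mice. Dusp1 shares 11 bp of exon with Ergic1 on the other strand, and Ergic1 was higher in the mutants: 45.5 to 52.7 CPM in wildtype and 63.8 to 67.8 CPM in mutant libraries of group 1, and a log2 fold change of 0.38 over both groups of mice (adjusted p = 7.03e-05).

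Fkbp5 (ENSMUSG00000024222, chr17:28399094-28517527, minus strand) encodes a cochaperone that lowers the receptor's affinity for hormone and is itself induced by it, a negative feedback. It was at 50.1, 55.4 and 49.1 CPM in wildtype and 40.4, 39.4 and 47.3 CPM in mutant libraries of group 1. In group 2 it was at 57.9, 40.7 and 43.2 CPM in wildtype, 38.03, 35.4 and 39.7 CPM in mutant and 39.2, 47.2 and 39.1 CPM in low-yield mutant libraries. Wildtype and mutant libraries did not overlap in either group of mice, although the closest ones lay near each other, whereas 1 low-yield library lay among the wildtype ones. For Fkbp5 the estimates were log2 fold changes of -0.28 in group 1 (SE 0.09, edgeR adjusted p = 0.0608), -0.32 in the mutants of group 2 (SE 0.13, adjusted p = 0.164) and -0.17 in the low-yield mutants (SE 0.13, adjusted p = 0.424). The estimates in group 2 depended on wildtype replicate 1, the highest library: without it the mutants were at -0.14 (edgeR adjusted p = 0.482) and the low-yield mutants at 5.87e-05 (adjusted p = 1). Without wildtype replicate 2 the low-yield value was -0.27 (adjusted p = 0.272) and without low-yield replicate 2 it was -0.26 (adjusted p = 0.329), none of them called. With voom they were at -0.17 (adjusted p = 0.336) and -0.07 (adjusted p = 0.695). Over both groups of mice it was -0.30 (SE 0.08, adjusted p = 0.0123; approximate 95% interval from -0.46 to -0.14), or 0.812 times the wildtype level, and it stayed called without any single library, with adjusted p between 0.00756 and 0.0412. In group 1, the fit with the replicate number as a block gave -0.28 with an adjusted p of 0.0240, which was lost without the libraries numbered 1 (-0.27, adjusted p = 0.0938) or 2 (-0.18, adjusted p = 0.236) and held without those numbered 3 (-0.40, adjusted p = 0.0107).

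Tsc22d3 (ENSMUSG00000031431, chrX:140539528-140600659, minus strand), known as GILZ, a leucine zipper protein that carries many anti-inflammatory effects of glucocorticoids and is often used as a readout of receptor activity, was the lowest of the tested members. It was at 3.35, 4.38 and 6.13 CPM in wildtype and 2.84, 4.53 and 3.93 CPM in mutant libraries of group 1. In group 2 it was at 4.59, 2.57 and 2.96 CPM in wildtype, 3.76, 3.98 and 2.66 CPM in mutant and 3.29, 4.87 and 3.47 CPM in low-yield mutant libraries. The ranges overlapped throughout. Tsc22d3 had a log2 fold change of -0.30 in group 1 (SE 0.26, edgeR adjusted p = 0.495), 0.03 in the mutants of group 2 (SE 0.29, adjusted p = 0.970) and 0.22 in the low-yield mutants (SE 0.28, adjusted p = 0.672), and the mutant effect did not differ detectably between the groups of mice (adjusted p = 1). Without 1 library the log2 fold change lay between -0.47 and -0.04 in group 1 and between -0.12 and 0.30 in the mutants of group 2. In the low-yield mutants it lay between 0.04 and 0.48. The value over both groups of mice was -0.18 (SE 0.19, edgeR adjusted p = 0.583), -0.01 without wildtype replicate 3 of group 1 and -0.27 without wildtype replicate 1 of group 1. Its approximate 95% interval, from -0.55 to 0.20, leaves room for a moderate change.

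Per1 (ENSMUSG00000020893, chr11:69095217-69109960, plus strand), a repressor of the circadian clock that is also induced directly by the receptor, was at 14.9, 14.0 and 20.6 CPM in wildtype and 14.1, 17.1 and 15.8 CPM in mutant libraries of group 1. In group 2 it was at 26.9, 28.9 and 24.1 CPM in wildtype, 29.3, 27.03 and 27.2 CPM in mutant and 29.5, 30.3 and 24.3 CPM in low-yield mutant libraries. All ranges overlapped. The log2 fold change over both groups of mice was -0.01 (SE 0.09, edgeR adjusted p = 0.979), with an approximate 95% interval from -0.18 to 0.17.

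Ppara (ENSMUSG00000022383, chr15:85734983-85802819, plus strand), the nuclear receptor that drives fatty acid oxidation in liver, had 47 counts in all 15 libraries together, out of 623583521. The wildtype libraries of group 1 held 2, 1 and 8 counts and the mutants 0, 3 and 0. In group 2 the wildtype libraries held 0, 8 and 16 counts, the mutants 0, 0 and 2 and the low-yield mutants 5, 2 and 0. The counts were at 0 in 6 libraries. In these 6 a floor of 3 counts allows between 0.0581 and 0.120 CPM, for counting error only. The gene did not pass the filter on low counts in any fit. Without that filter its log2 fold change was -1.65 in group 1 (SE 1.71, edgeR adjusted p = 0.659), -3.14 in the mutants of group 2 (SE 1.54, adjusted p = 0.358), -1.64 in the low-yield mutants (SE 1.16, adjusted p = 0.526) and -2.46 over both groups of mice (SE 1.15, adjusted p = 0.192), so that no difference was called.

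In total 7 of the 8 members were tested in each comparison. Against wildtype, 1 was called lower in group 1, where 6.78% of the 14048 genes tested were called lower (952 of 1766 called), 1 in the mutants of group 2, where 2.95% of 15024 were (443 of 942), and 1 in the low-yield mutants, where 5.86% were (880 of 1884). That 1 gene was Dusp1 each time, and no member was called higher. These counts are without the replicate block, with which 3 members were called lower in group 1 (Dusp1, Fkbp5 and Zfp36l1), where 2863 genes were called in all. Over both groups of mice 2 members were called lower, Dusp1 and Fkbp5, beside 9.8% of 15954 genes; this fit uses the same libraries again. With so few members, a share of 1 or 2 in 7 is not set apart from the share of all genes. Groups of libraries did not overlap for 2 members in group 1 (Dusp1 and Fkbp5), against 31.6% of all genes, for the same 2 in the mutants of group 2, against 23.2%, and for 2 in the low-yield mutants (Dusp1 and Zfp36l1), against 29.9%. The members' median log2 fold change was -0.27, -0.02 and -0.17 in those 3 comparisons, while that of all genes tested was 0.01, -0.01 and -0.0035. No member was called between low-yield and ordinary mutants, where edgeR called 0% of genes, nor for a mutant effect that depends on the group of mice (the interaction), where it called 0.0188%. In both, 0 of the 7 had an unadjusted p under 0.05, and neither DESeq2 nor voom called a member. Over all genes, 480 had an unadjusted p under 0.05 between low-yield and ordinary mutants, of which edgeR called 0, DESeq2 6 and voom 4.

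**Figure D3:**
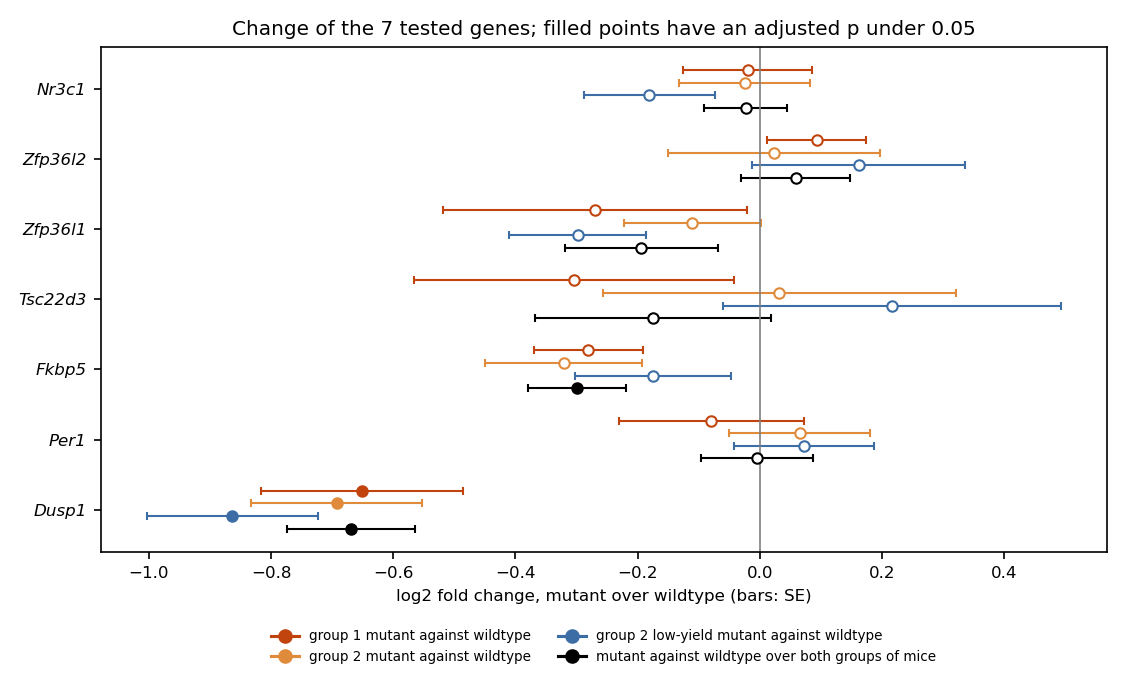
Log2 fold change of the 7 tested members in each comparison with wildtype; points are edgeR estimates, bars are standard errors and filled points passed the threshold. Dusp1 lies between -0.86 and -0.65 in all of them, Fkbp5 lies between -0.32 and -0.17, Zfp36l1 between -0.30 and -0.11, Tsc22d3 between -0.30 and 0.22, Nr3c1 between -0.18 and -0.02, Zfp36l2 between 0.02 and 0.16 and Per1 between -0.08 and 0.07.

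Markers of other cell types moved with genotype. The summed level of 11 granulocyte and mast cell markers was 97.8 to 724 CPM in wildtype and 225 to 1352 CPM in mutant libraries of group 1, and 14.0 to 27.7 CPM in wildtype, 95.9 to 200 CPM in mutant and 145 to 288 CPM in low-yield mutant libraries of group 2; of the 9 tested in group 2, 7 rose in the mutants and 9 in the low-yield mutants, and Mcpt8 was at or near 0 everywhere. In group 1 each mutant library lay above the wildtype library of its number (225 against 97.8, 1352 against 724 and 911 against 684 CPM). Whether the numbers pair the libraries is not settled. Of the 10 tested there, 0 were called without the replicate block and 5 rose with it, 50% beside 20.4% of all genes in that fit. With the block 2 of 6 megakaryocyte, 1 of 4 macrophage, 1 of 3 endothelial and 2 of 2 stromal markers rose as well. With so few genes tested, counts of 1 or 2 are not set apart from that share. The 6 megakaryocyte markers summed to 11.2 to 14.1, 19.4 to 20.5 and 29.8 to 38.6 CPM in the same 3 groups of group 2. Of the 8 erythroid markers, 5 fell in group 1 and 2 in each mutant comparison of group 2. Hepatocyte markers (8) summed to 34.3 to 62.4 CPM in wildtype and 7.43 to 23.2 CPM in mutant libraries of group 1, with ranges that overlapped in group 2. The 6 endothelial markers summed to 0.896 to 1.90 CPM in wildtype, 3.56 to 5.87 CPM in mutant and 6.45 to 10.0 CPM in low-yield mutant libraries of group 2, without overlap, and of the 4 tested there 1 rose in the mutants and 3 in the low-yield mutants; in group 1 they summed to 2.09 to 4.38 CPM in wildtype and 3.91 to 9.67 CPM in mutant libraries. The 6 stromal markers summed to 1.64 to 2.18 CPM in wildtype and 4.37 to 6.36 CPM in mutant libraries of group 1, without overlap, where 1 of 2 tested rose; in group 2 their ranges were 2.51 to 4.33, 4.05 to 5.94 and 4.96 to 7.97 CPM in wildtype, mutant and low-yield mutant libraries. The summed levels of 9 macrophage and 6 lymphoid markers were at most 12.2 and 1.04 CPM in any library. The part of these shifts in the lower Dusp1 and Fkbp5, and in the changes of the gene lists given further on, was not tested.

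The stretches before the start sites of the members called lower were read for letters that the receptor and other inducers are known to bind, and are shown with those of Tsc22d3 and Per1, receptor-induced genes that were not called. RefSeq's table for GRCm38.p6 matched 6 of the 8 members, with 9 start sites among them. The 250 bases before each start were searched on both strands for AGAACA or TGTTCT (1 arm of the glucocorticoid response element), the full glucocorticoid palindrome, which contains both arms, the E-box CACGTG, bound by clock factors among others, and the cAMP response element TGACGTCA. Printed 5′ to 3′ on the gene's strand with matches in capitals, they are Dusp1 (chr17:26508473-26508722, minus strand), Fkbp5 (chr17:28486150-28486399, minus strand), Per1 (chr11:69098699-69098948, plus strand) and Tsc22d3 (chrX:140600523-140600772, minus strand).
Dusp1: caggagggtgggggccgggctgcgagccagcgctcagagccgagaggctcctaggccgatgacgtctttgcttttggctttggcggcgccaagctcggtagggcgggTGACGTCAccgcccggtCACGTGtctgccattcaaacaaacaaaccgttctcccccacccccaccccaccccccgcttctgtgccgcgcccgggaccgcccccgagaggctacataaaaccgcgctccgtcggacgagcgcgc
Fkbp5: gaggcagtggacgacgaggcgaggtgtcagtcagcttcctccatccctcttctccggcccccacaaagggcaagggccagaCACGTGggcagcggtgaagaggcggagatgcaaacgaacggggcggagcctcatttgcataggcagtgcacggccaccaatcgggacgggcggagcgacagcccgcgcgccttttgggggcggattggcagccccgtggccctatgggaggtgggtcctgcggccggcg
Per1: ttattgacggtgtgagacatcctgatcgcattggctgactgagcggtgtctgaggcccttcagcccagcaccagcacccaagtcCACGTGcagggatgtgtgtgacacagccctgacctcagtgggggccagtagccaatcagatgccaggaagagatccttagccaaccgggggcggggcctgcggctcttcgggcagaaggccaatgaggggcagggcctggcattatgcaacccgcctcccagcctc
Tsc22d3: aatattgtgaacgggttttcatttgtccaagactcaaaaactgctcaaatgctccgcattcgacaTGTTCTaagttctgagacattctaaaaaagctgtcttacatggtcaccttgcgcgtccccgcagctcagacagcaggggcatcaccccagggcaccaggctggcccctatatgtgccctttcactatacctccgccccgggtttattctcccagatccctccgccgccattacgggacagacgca
The Dusp1 window held the cAMP response element 143 bases and an E-box 126 bases before the start. The Fkbp5 window held an E-box 169 bases and the printed Per1 window an E-box 166 bases before the start. The printed Tsc22d3 window held a single TGTTCT arm 185 bases before the start. The table has 2 start sites for Per1 and 3 for Tsc22d3; the windows shown are those with a match, and the other windows of both genes held none, nor did the windows of Zfp36l1 and Ppara. Among all 9 windows, 3 held the E-box, 1 the cAMP response element, 1 a glucocorticoid arm and 0 the full palindrome; among 32851 promoters of the same length the shares were 6.02%, 1.55%, 16.1% and 0.00913%. The E-box was found before the called Dusp1 and Fkbp5 and before the uncalled Per1. A match is a description of these letters only, and known receptor sites of such genes can lie outside these windows.

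Genes with related roles were counted from 9 lists, beside the median of all genes tested. The lists too were chosen with earlier results of these data known. Of 22 glucocorticoid-induced genes other than the members, 18 were tested. In group 1 none was called higher and 1 lower, with a median log2 fold change of -0.03 against 0.01 for all genes; with the replicate block 3 were called higher and 2 lower, 27.8% beside 20.4% of all genes in that fit. That is 5.56% called without the block, beside 12.6% of all genes. In the mutants of group 2, 4 rose and 3 fell (median 0.13), 38.9% called beside 6.27% of all genes, and in the low-yield mutants 2 rose and 3 fell (median 0.16), 27.8% called beside 1884 of 15024 genes. Over both groups of mice 27.8% of them were called, beside 19.6% of all genes. With the replicate block, whose pairing is not settled, 5 rose and 3 fell, 44.4% called beside 24.4% of all genes in that fit. The genes called therefore moved in both directions. Hif3a, a negative regulator of hypoxia signalling, fell from 102 ± 2.7 to 81.9 ± 0.322 CPM in group 1 and from 225 ± 16.6 CPM in wildtype to 171 ± 14.8 and 151 ± 11.2 CPM in mutant and low-yield mutant libraries of group 2 (over both groups of mice -0.36, SE 0.05, edgeR adjusted p = 0.000103). The metallothionein Mt1, a metal-binding protein, went from 466 ± 59.7 to 322 ± 33.7 and 323 ± 6.19 CPM in group 2 (over both groups of mice -0.50, SE 0.11, edgeR adjusted p = 0.00471). In group 1 Mt1 was not called by the main fit (-0.47, adjusted p = 0.224) and was called with the replicate block (-0.44, adjusted p = 0.00729). Its relative Mt2 had a log2 fold change of -0.90 over both groups of mice, with an edgeR adjusted p of 0.0208 that rose to 0.0505 without mutant replicate 1 of group 1 and to 0.0527 without mutant replicate 1 of group 2. In contrast, Zbtb16 (PLZF), a transcriptional repressor of stem and progenitor cells, rose over both groups of mice (0.74, SE 0.17, edgeR adjusted p = 0.00757), from 14.3 ± 3.11 to 26.8 ± 8.0 and 28.4 ± 5.53 CPM in group 2. Its calls in the mutants and in the low-yield mutants of group 2 each held in 5 of 9 fits without 1 library. In group 1 Zbtb16 was not called (0.57, adjusted p = 0.149), except with the replicate block (0.57, adjusted p = 0.0038).

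Of 18 chaperones, cofactors and steroid enzymes that act on the receptor, 3 rose and 0 fell over both groups of mice (median 0.05); this is 16.7% called, near the 19.6% of all 15954 genes tested. With the replicate block 4 rose and 1 fell, 27.8% called beside 24.4% of all genes. Ncoa1, a coactivator of steroid receptors, rose from 4.82 ± 1.81 to 9.66 ± 1.32 CPM in group 1 and from 8.26 ± 1.09 to 13.1 ± 1.55 and 13.4 ± 2.20 CPM in group 2 (over both groups of mice 0.84, SE 0.15, edgeR adjusted p = 0.000392). The other called genes, named after their values were seen, were Hsp90ab1, the receptor's chaperone, and the coactivator Ncoa3. Nr3c1 itself was not called, as given above.

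Of 12 partners in progenitor renewal, all tested, 5 rose and 2 fell over both groups of mice (median 0.13 against -0.0007 for all genes), 58.3% called beside 19.6% of all genes. The 2 receptors of the key growth factors went opposite ways. Kit, the receptor of stem cell factor, rose over both groups of mice by 0.38 (SE 0.07, edgeR adjusted p = 0.000383). Kit is also expressed by mast cells, and the granulocyte and mast cell markers rose in the same group 2 comparisons, as given above. Of the mast cell and basophil genes among them, Cpa3 had group means of 0.144 to 1.76 CPM and Mcpt8 of 0 to 0.0672 CPM. Cpa3 rose over both groups of mice as well (1.53, SE 0.48, edgeR adjusted p = 0.0243). The part of mast cells in the rise of Kit was not tested. Epor, the erythropoietin receptor, fell from 226 ± 3.38 to 171 ± 10.6 CPM in group 1 and from 293 ± 11.8 to 231 ± 12.8 and 214 ± 19.5 CPM in group 2 (-0.37, SE 0.05, adjusted p = 5.62e-05). Bmi1, a Polycomb protein that sustains self-renewal, rose by 0.42 (SE 0.07, adjusted p = 0.000376), and Tgfbr3, a TGF-beta coreceptor, rose by 0.34 (SE 0.06, adjusted p = 0.000637), both over both groups of mice. Epor is also among the erythroid markers above.

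Of 20 PPAR receptors, partners and targets, 16 were tested over both groups of mice, where 2 rose and 1 fell (median 0.03), 18.8% called beside 19.6% of all genes. Cpt1a, the enzyme that admits long-chain fatty acids to mitochondria and a classic target of Ppara, rose from 35.5 ± 3.97 to 53.9 ± 7.04 CPM in group 1 and from 47.3 ± 1.54 to 65.5 ± 6.56 and 81.7 ± 3.21 CPM in group 2 (0.54, SE 0.08, edgeR adjusted p = 7.35e-05). Ppara itself had almost no counts in these libraries, and its part in the rise of Cpt1a was not tested. Acot1 had 56 counts in the wildtype and 0 in the mutant libraries of group 1, at least 17.2-fold lower at a floor of 3 counts over the group, and was not called in group 2.

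Of 18 genes of the ZFP36 family and its decay partners, 17 were tested and 3 rose over both groups of mice (median 0.11), 17.6% called beside 19.6% of all genes. With the replicate block 6 rose and 1 fell, 41.2% called beside 24.4% of all genes. Cnot1, the scaffold of the CCR4-NOT deadenylase that ZFP36 proteins recruit, rose from 327 ± 13.1 to 396 ± 15.2 CPM in group 1 and from 476 ± 26.6 to 575 ± 34.3 and 579 ± 16.5 CPM in group 2 (0.28, SE 0.05, edgeR adjusted p = 0.000722). In the mutants of group 2 alone its adjusted p was 0.0468, and between 0.0568 and 0.223 without any one of the 9 libraries. Its partner Cnot2 rose by 0.23 (SE 0.07, adjusted p = 0.0329), a call lost without any one of 6 of the 12 libraries (wildtype 2 or 3 or mutant 3 of group 1, or wildtype 2, mutant 1 or mutant 3 of group 2), where the adjusted p lay between 0.0551 and 0.0741.

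Of 9 other MAP kinase phosphatases, all tested, 4 rose and 1 fell over both groups of mice, 55.6% called beside 19.6% of all genes, with a median log2 fold change of 0.57. In group 1, edgeR called 1, or 11.1% beside 12.6% of all genes, and with the replicate block 3 higher and 1 lower, 44.4% beside 20.4% of all genes in that fit. In the mutants of group 2 it called none, beside 6.27% of all genes, and in the low-yield mutants 2 higher and 1 lower, 33.3% called beside 1884 of 15024 genes. Dusp7, a cytoplasmic phosphatase of ERK, rose from 20.1 ± 0.719 to 28.7 ± 0.492 CPM in group 1 (0.52, SE 0.09, edgeR adjusted p = 0.00291). It was not called in the mutants of group 2 (0.33, adjusted p = 0.0943) or in the low-yield mutants (0.35, adjusted p = 0.0548). Over both groups of mice it rose by 0.42 (SE 0.07, adjusted p = 0.000196). The other genes called there, named after their values were seen, were Dusp2, Dusp6 and Dusp9 among those that rose and Dusp8, which fell like Dusp1 (-0.74, adjusted p = 0.0244). Among 16 immediate early genes, the class of rapid response genes to which Dusp1 also belongs, 14 were tested over both groups of mice and 1 rose and 1 fell, 14.3% called. The one that fell was Btg2, an antiproliferative gene, at 18.4 ± 4.86 and 9.08 ± 1.61 CPM in wildtype and mutant libraries of group 1 (over both groups of mice -0.92, SE 0.20, edgeR adjusted p = 0.00633). In the mutants of group 2 it was not called (-0.80, adjusted p = 0.167). Its call in the low-yield mutants (-1.19, adjusted p = 0.0313) held in 4 of 9 fits without 1 library.

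Of 20 clock genes, 15 were tested and 3 rose and 1 fell over both groups of mice (median 0.13), 26.7% called beside 19.6% of all genes. Csnk1e, the kinase that marks PER proteins for decay, rose by 0.36 (SE 0.09, edgeR adjusted p = 0.00891), while its substrate gene Per1 was not called. Of the 3 other TSC22 family genes none was called; Tsc22d4, the one with the smallest p, had a log2 fold change of -0.05 (SE 0.05, adjusted p = 0.575).

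**Figure D4:**
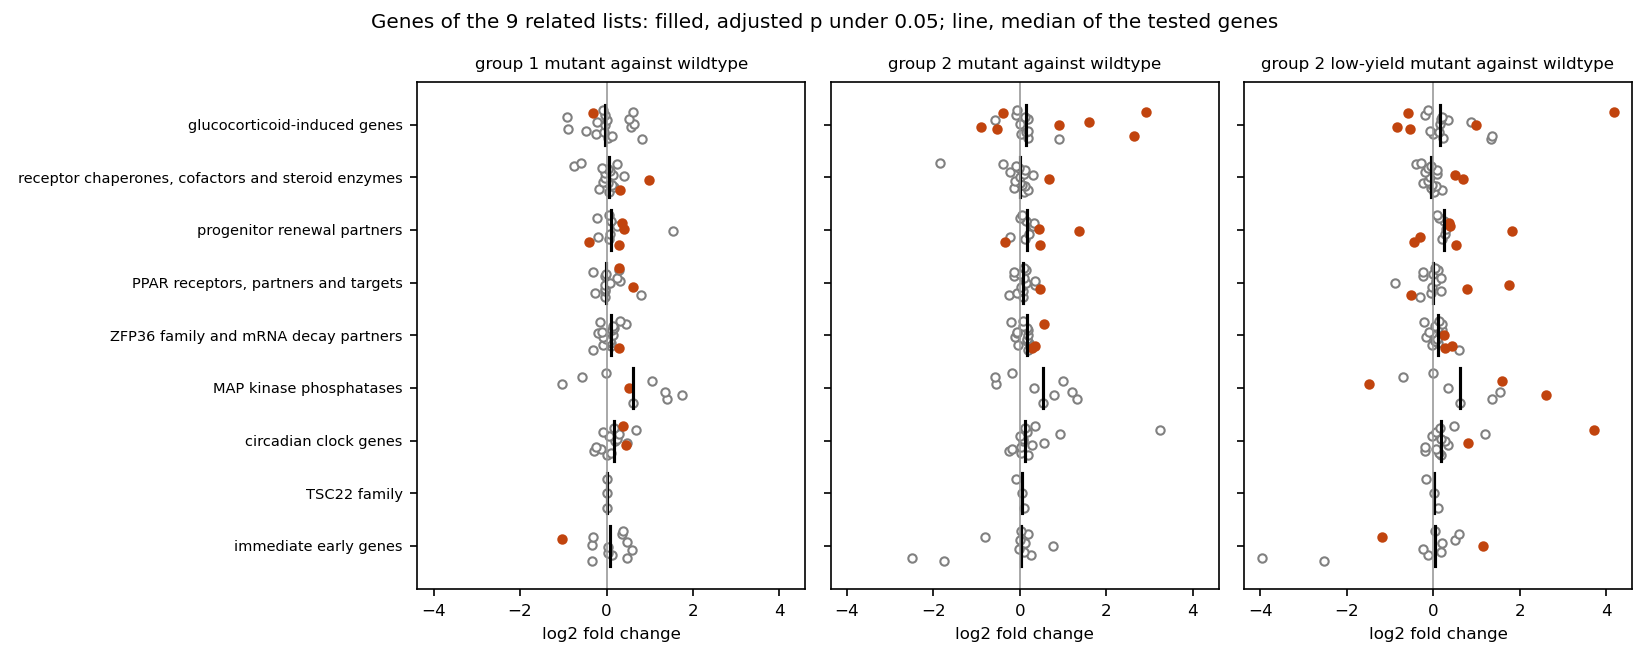
Log2 fold change of every tested gene of the 9 related lists in the comparisons with wildtype; each point is a gene, filled where it was called, and the short bar is the median of the genes plotted. Acot1 is left out of group 1 because all its mutant libraries were at 0. Called genes of the glucocorticoid-induced list lie on both sides of 0, and the medians of the MAP kinase phosphatases lie between 0.53 and 0.62.

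Genes whose levels followed a member across all 15 libraries were sought among 8565 well-expressed protein-coding genes, after centring log2 CPM within each group of mice. This was done for the members that spanned more than 1 on that scale, Dusp1 (1.16) and Tsc22d3 (1.10). The spans of the others were 0.96 for Zfp36l1, 0.71 for Fkbp5, 0.59 for Zfp36l2, 0.56 for Per1 and 0.45 for Nr3c1. Nearest to Dusp1 were Coq8a, Selenbp1 and Plaat3, with mean absolute differences of 0.122, 0.123 and 0.123 in log2 CPM. Nearest to Tsc22d3 were Btg1, Lgals9 and Prpf40b, at 0.134, 0.140 and 0.150. The libraries share their genotype groups, so such likeness describes these libraries only.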

How the data were processed

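RNA from 15 libraries was extracted with a kit for small samples (RNeasy Micro) and read as 151 bp paired ends on a NovaSeq, per the labels' protocols. The authors deposited expected counts for each gene, estimated read numbers without normalisation. The submitters' processing notes name cutadapt 2.3, FastQC 0.11.8, STAR 2.7.8a, RSEM 1.3.3, MultiQC 1.7 and GRCm38; their roles, the gene annotation and whether counting used strand are not given in the sources used here. The deposited counts held 0 values that were not whole, so rounding changed nothing. Reporter rows held 5 counts in all and were left out. Of 55487 gene IDs, 55227 (99.5%) matched GENCODE M21 for GRCm38, which gave positions and exon lengths; genomic sequence and position of 1 member are not reported here.

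Libraries were grouped by their titles. Genes were tested in R 4.3.3 with edgeR 4.0.16 (TMM, filterByExpr, robust quasi-likelihood F test, two-sided) and adjusted by Benjamini-Hochberg over all genes tested, with a threshold of 0.05, in 6 comparisons: mutant against wildtype in group 1 (6 libraries), the 3 contrasts of group 2 (1 fit of 9 libraries), and mutant against wildtype over both groups of mice, with the group as a block, and its interaction (12 libraries). The standard error is the log2 fold change divided by the root of F, and the 95% intervals use it with a normal approximation. The fit was first run in this version's legacy mode; the mode with bias-adjusted deviances was taken as the main one after the results of the legacy mode had been seen, and the legacy mode is kept as an alternative. The script was tested on simulated data. CPM were computed after TMM scaling within each group of mice, and CPM per kb divide them by merged exon length. Same-numbered wildtype and mutant libraries of group 1 had correlations across genes of 0.441, 0.186 and 0.146 between their deviations from the group means. Differently numbered ones lay between -0.349 and 0.230, the highest being wildtype 3 with mutant 2. In group 2, same-numbered wildtype and mutant libraries had 0.241, 0.173 and 0.0245, and all same-numbered ones lay between -0.0681 and 0.241. Whether the replicate number pairs the libraries is therefore not settled, and fits with it as a block are alternatives.

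The members and lists were chosen with earlier results of these data known. All members are named; of each list, up to 4 genes called with 1 sign in at least 2 of the 3 comparisons with wildtype, and the gene with the smallest p over both groups of mice. Likeness is the mean absolute difference of centred log2 CPM (prior count 2) among genes with a mean of at least 5 CPM. Alternatives were DESeq2 size factors, DESeq2 1.42.0, voom with quality weights (limma 3.58.1), no filter, a mean of at least 1 CPM, the replicate block, the compared libraries alone and leaving out each library.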

Additional observations from a re-analysis of the deposited data

How the results depend on the processing

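No result changed direction while called. In group 1 the number of members called was 1, and it became 2 with DESeq2, 2 with a mean of at least 1 CPM and 3 with the replicate block, and lay between 0 and 1 without 1 library. Fkbp5 was gained in each (adjusted p = 0.0318, 0.0493 and 0.0240), and without mutant replicate 3 (-0.36, adjusted p = 0.0470). In the low-yield mutants voom called 2 members, adding Zfp36l1 (-0.32, adjusted p = 0.0438). The edgeR mode reported here was chosen after seeing the data in the legacy mode, which called the same members in every comparison. In group 2, the replicate block left Dusp1 the called member. All 19 alternatives called Dusp1 and Fkbp5 over both groups of mice. Of 15 calls of named list genes over both groups of mice, 13 held without any single library, Mt2 and Cnot2 being the exceptions, and Mt2 was also lost with voom (-0.74, adjusted p = 0.0576); of their 34 calls in the 3 single comparisons with wildtype, 13 held.

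Counts of all genes moved more. Group 1 had 1766 called, 2863 with the replicate block, and 1051, 836 and 1168 without wildtype replicates 1, 2 and 3 and 753 without mutant replicate 3. The mutants of group 2 had 942, and 1452 with DESeq2, 2000 with voom and between 425 and 1323 without 1 library. The low-yield mutants had 1884, and 3399 with voom and between 900 and 2395 without 1 library. Between low-yield and ordinary mutants 0 became 22 without low-yield replicate 3. The interaction had 3, and 13 with DESeq2 and 5 with the replicate block. The cause was not tested. Ppara passed no filter on low counts, and without a filter it was not called in any comparison.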
